A study of Mus musculus with 24 samples.

Results

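The data described here compare cultured astrocytes from SOD1G93A mice with cultured astrocytes from wild-type (WT) mice, both left quiescent. They are 6 of the 24 RNA-seq libraries of the study, 3 of each genotype, and the comparison covered the 12271 of 24411 listed genes whose mean over those 6 libraries was at least 10 normalized counts. The study profiled glia from WT and SOD1G93A mice, a model of amyotrophic lateral sclerosis (ALS), with and without factors that turn astrocytes reactive. SOD1G93A mice carry a transgene for a mutant human form of superoxide dismutase 1, and the line had been bred to C57BL/6J for 8 generations. Astrocytes were immunopanned from forebrain cortices, that is, sorted on coated plates. Per the methods, plates for CD45, the lectin BSL I and the O4 antigen first removed microglia, endothelial cells and oligodendrocyte lineage cells, and an antibody to HepaCAM then captured astrocytes. The methods give postnatal day 5 as the age of the WT pups. Cells grew without serum in medium holding HBEGF, an astrocyte survival factor, at 5 ng/mL, and the quiescent wells of both genotypes received PBS as the vehicle. A second set of 3 libraries of each genotype came from astrocytes exposed to an activating mixture (3 ng/mL of IL-1α, 30 ng/mL of TNFα, 400 ng/mL of C1q), and is used below for side by side values. Nothing in the labels says whether the libraries of a genotype came from separate animals or cultures, so the tests measure the spread between these libraries, which may be technical. The paper refers to a supplementary list of biological replicate numbers, which is not among the sources used here. The sex of the pups is not given in the sources used here.

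Astrocytes clear glutamate and potassium around neurons, supply lipids and metabolites, and shape synapses. On injury or inflammation they become reactive, with more intermediate filament protein, and microglial IL-1α, TNFα and C1q drive one such state. In SOD1G93A mice the mutant protein is made in many cell types, astrocytes included, and the quiescent cultures compare the genotypes without added activating factors.

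The 3 WT libraries held 2016139, 3637657 and 9258718 reads in genes and the 3 SOD1G93A libraries held 9526331, 7251063 and 3292225, so depth differed within each genotype by more than it did between them. Between 14288 and 15753 genes had at least 1 read in a library. Of 16 astrocyte markers, 15 passed the minimum, and Slc1a3, the glutamate transporter GLAST, ranged from 8508 to 12988 normalized counts. Gjb6, which encodes connexin 30, had at most 3 reads in any library. Of the markers of other cells, Cldn5 and Ly6c1 of endothelium and Kcnj8 of pericytes had 0 reads in all 6 libraries, while Mog of mature oligodendrocytes and Slc17a7 of excitatory neurons had at most 1. Other members of these lists were detected. The minimum was passed by 14 of 20 oligodendrocyte lineage, 10 of 15 neuron, 2 of 12 endothelial and 3 of 12 pericyte and fibroblast markers. The summed level of the oligodendrocyte lineage markers was 15842 to 16237 in WT and 16734 to 18495 in SOD1G93A. That of the neuron markers was 4263 to 5231 and 4944 to 5266. Despite the CD45 step, microglia markers were detected as well, with 18 of 20 tested and a summed level of 1449 to 2735 in WT and 2285 to 3445 in SOD1G93A. In these bulk samples, fewer cells of a type and less RNA per cell cannot be told apart.

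WT replicates 1 and 3 stood farthest from the libraries of their own genotype. WT replicate 1, the shallowest library, had 351 genes (2.86%) more than 2-fold from the log2 mean of the other WT libraries, and WT replicate 3 had 277 (2.26%). WT replicate 2 had 153, and the SOD1G93A libraries had 53 to 168. The first principal component held 40.6% of the variance and placed WT replicates 1, 2 and 3 at -0.42, 0.10 and 0.67 and SOD1G93A replicates 1, 2 and 3 at 0.29, -0.11 and -0.52, so it ran across both genotypes. Within each genotype this component rose with the reads of the library, and the part of depth in it was not tested. The second component, with 28.3%, placed the WT replicates at 0.75, 0.12 and 0.18 and the SOD1G93A replicates at -0.28, -0.35 and -0.43, with the genotypes on opposite sides of 0. For many named values that moved by over 1.5 times when a library was left out, the value without it is given as well. This was not done for every such value, so a difference given alone may still rest on a single library. For gene lists whose counts or medians moved by over 1.5 times, the range over the 6 fits that each left out a library is given. Medians within 0.10 of 0 and moves of 1 gene are excepted.

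Few genes were called between the genotypes in the main test, and their number depended strongly on the model. With limma on log2(normalized count + 1) and Benjamini-Hochberg adjustment, 7 of 12271 genes (0.0570%) passed an adjusted p of 0.05, 5 lower and 2 higher in SOD1G93A. The same count was 7 with edgeR, 54 with DESeq2, 0 with limma without its trend, 746 (6.08%) with depth class and 2359 with log2 depth as a term, 5321 with library quality weights whose estimate did not converge, and 1 to 6 as single libraries were left out. None (0%) passed an adjusted p of 0.001 with a change over 2-fold by limma as described or by edgeR, while 7 did by DESeq2, 13 by limma with depth class, 41 with log2 depth and 178 with library weights. At an unadjusted p under 0.05 there were 1068 genes (8.70%), of which 529 were higher (4.31%) and 539 lower (4.39%). The median log2 fold change of all genes was 0.00 and its SD over genes was 0.28. The data set bounds on most genes, since 10906 (88.9%) had a 95% interval that lay wholly within 1 log2 unit of 0. The median standard error was 0.15 on the log2 scale. Genotypes did not overlap, with all 3 SOD1G93A libraries on one side of all 3 WT libraries, for 1797 genes (14.6%), 868 above (7.07%) and 929 below (7.57%).

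**Figure D1:**
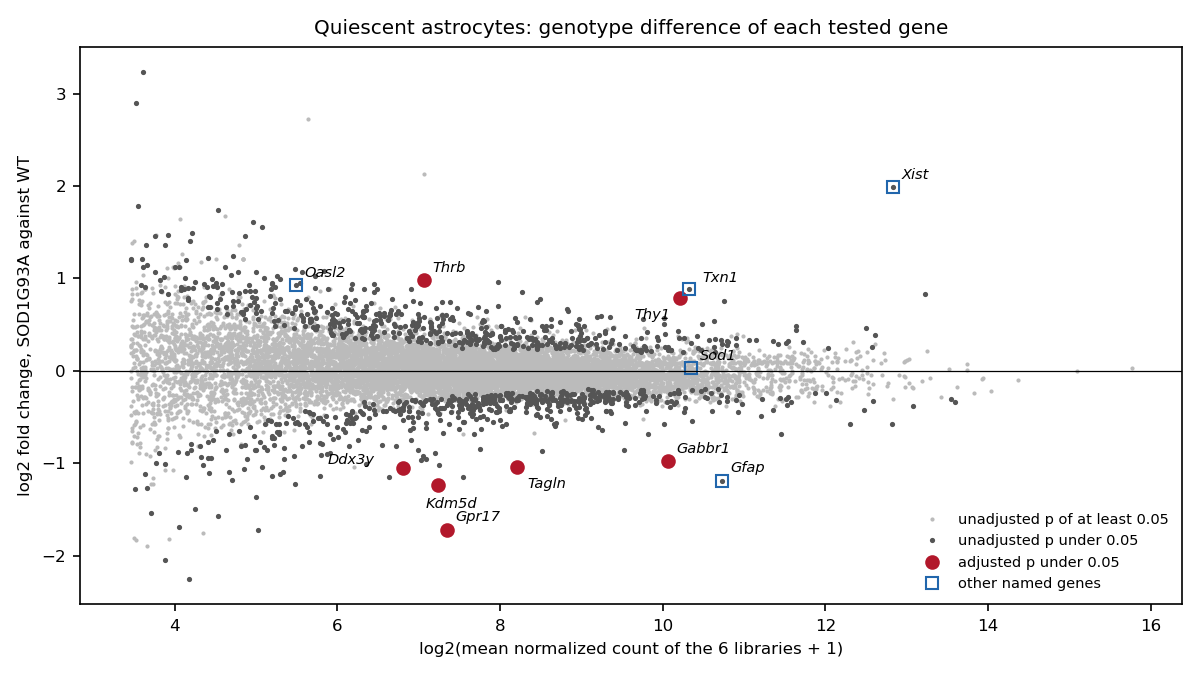
Log2 fold change of SOD1G93A against WT (vertical axis) against log2(mean normalized count of the 6 libraries + 1) (horizontal axis), 1 point per tested gene, darker at an unadjusted p under 0.05. The 7 called genes are red, squares mark other named genes, and most points lie within 1 log2 unit of 0.

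The gene with the lowest p was Gpr17, an orphan G protein-coupled receptor that marks oligodendrocyte precursors on their way to differentiation. It had 260, 216 and 269 normalized counts in WT and 84.1, 70.1 and 69.6 in SOD1G93A. Every WT library was above every SOD1G93A library by a wide margin. Gpr17 fell by 1.72 on the log2 scale (95% interval -2.04 to -1.40, adjusted p = 0.00333), a level 3.30-fold higher in WT. Gpr17 was the only gene of the 7 still called in each of the 6 fits that left out a library, with adjusted p between 0.00720 and 0.0453. It lies on the minus strand of chromosome 18 at 31942997 to 31949636 (GRCm38, GENCODE M21), inside Lims2 on the opposite strand. Lims2, named here after its values were seen, had 27.0, 5.47 and 19.9 in WT and 12.2, 4.72 and 2.96 in SOD1G93A, all below the WT values of Gpr17. The library kit kept strand per the methods, and whether the counting used it is not given in the sources used here.

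Gabbr1 encodes a subunit of the GABA-B receptor, through which GABA acts on astrocytes as well as neurons. Its normalized counts were 1339, 1363 and 1557 in WT and 615, 711 and 848 in SOD1G93A. The genotypes were well apart, and Gabbr1 fell by 0.98 (95% interval -1.26 to -0.70, adjusted p = 0.0455, chromosome 17, 37045966 to 37075067). Tagln, which encodes the actin-binding protein transgelin of contractile cells, had 339, 435 and 423 in WT against 186, 196 and 196 in SOD1G93A. The SOD1G93A libraries were close to one another. Tagln fell by 1.04 (95% interval -1.31 to -0.77, adjusted p = 0.0244, chromosome 9, 45929619 to 45936058), while Pcsk7, a proprotein convertase gene that overlaps it and was named for that after its values were seen, differed by 0.04 (unadjusted p = 0.793, and -0.04 to 0.10 as single libraries were left out).

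The genes that rose were Thrb and Thy1. Thrb encodes thyroid hormone receptor beta, a nuclear receptor, and had 86.0, 97.0 and 83.0 in WT and 186, 162 and 181 in SOD1G93A. It rose by 0.98 (95% interval 0.69 to 1.28, adjusted p = 0.0455, chromosome 14, 17660261 to 18038090). Thy1, a GPI-anchored surface glycoprotein best known from neurons and T cells, had 823, 934 and 842 in WT and 1702, 1460 and 1362 in SOD1G93A. It rose by 0.79 (95% interval 0.55 to 1.04, adjusted p = 0.0455, chromosome 9, 44043384 to 44048579). Neither gene had overlapping genotypes, and neither was called in any of the 6 fits that left out a library. In those fits Tagln and Gabbr1 were each called 2 times, Kdm5d 1 time and Ddx3y 0 times.

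The remaining called genes lie on the Y chromosome. Kdm5d, a histone H3K4 demethylase, had 216, 236 and 183 in WT and 82.0, 87.6 and 96.3 in SOD1G93A, and fell by 1.24 (adjusted p = 0.0244). Ddx3y, an RNA helicase, had 138, 164 and 147 in WT and 66.1, 70.8 and 78.5 in SOD1G93A, and fell by 1.05 (adjusted p = 0.0455). The other male-specific genes tested pointed the same way without being called, Eif2s3y with 270, 205 and 138 against 83.1, 91.7 and 117 and Uty with 125, 119 and 78.5 against 34.4, 54.6 and 74.1. Xist, the RNA that coats the inactive X chromosome of female cells, had 4350, 3270 and 1345 in WT and 5818, 12109 and 16907 in SOD1G93A. No library lacked either Xist or the Y genes, and Xist was higher in every SOD1G93A library than in every WT library, by 1.99 (95% interval 1.00 to 2.97, adjusted p = 0.243). Kdm6a, an X-linked demethylase that escapes inactivation, was higher by 0.49 (unadjusted p = 0.00150). Of 11 genes of X inactivation or known to escape it, Xist and Kdm6a included, 3 were higher and 0 lower at an unadjusted p under 0.05. The 426 X-linked genes tested besides Xist, most of them dosage-compensated, had a median of 0.01, and 24 (5.63%) had an unadjusted p under 0.05. With X and Y genes left out of the fit, 2 autosomal genes passed. The part of these differences in the other results was not tested.

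**Figure D2:**
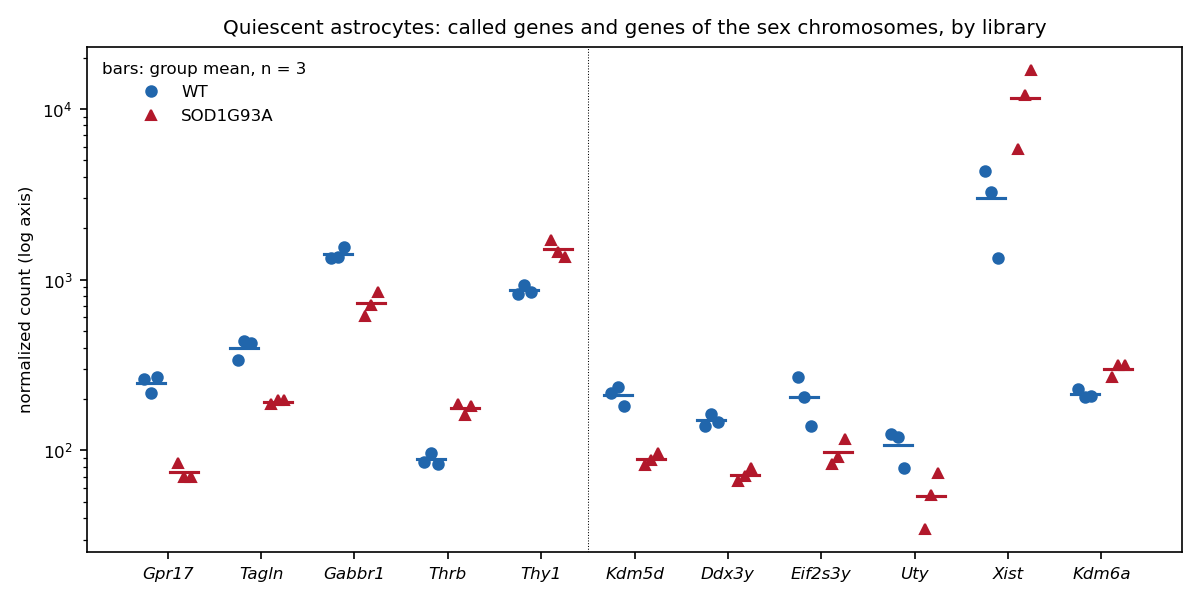
Normalized counts (vertical log axis) in each of the 6 quiescent libraries, for the autosomal called genes on the left and genes of the sex chromosomes on the right. Circles are WT, triangles are SOD1G93A and bars are the means of 3 libraries, and for each gene shown the genotypes do not overlap.

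Other genes had large differences with genotypes that did not overlap, yet were not called. Ccdc141, a coiled-coil protein gene, had 61.4, 57.4 and 58.1 in WT and 115, 110 and 117 in SOD1G93A, a difference of 0.94 (adjusted p = 0.0714). Calcrl, the receptor for calcitonin gene-related peptide and adrenomedullin, had 101, 90.2 and 60.3 against 166, 174 and 122, a difference of 0.89. Inpp4b, a phosphoinositide phosphatase, differed by 0.90 and Fndc1, a protein with fibronectin type III domains, by 0.94. Ptprn, a membrane protein of dense-core vesicles, had 130, 160 and 362 in WT and 89.4, 83.6 and 75.6 in SOD1G93A. WT replicate 3 was again the highest, and the difference of -1.24 became -0.80 without it.

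The remaining results describe gene lists by how many tested members had an unadjusted p under 0.05, to be read against 4.31% higher and 4.39% lower among all genes, and by their median against 0.00. Counts with log2 depth as a term are calls at an adjusted p under 0.05, to be read against 9.13% higher and 10.1% lower among all genes, and those with depth class as a term against 2.67% higher and 3.41% lower. Unless an adjusted p under 0.05 is given, no member named was called. Of 15 astrocyte markers, 1 was higher and 3 were lower, with a median of -0.27. Without WT replicate 1 or SOD1G93A replicate 1 these became 0 higher, 7 lower and -0.34, and without WT replicate 3 the median was -0.14. With depth class as a term 0 were called higher and 6 lower, and with log2 depth 1 higher and 10 lower. Gfap, the intermediate filament protein of reactive astrocytes, had 1830, 1752 and 3581 in WT and 1016, 1090 and 870 in SOD1G93A. All WT libraries were above all SOD1G93A libraries, with WT replicate 3 highest by far. The difference in Gfap was -1.19 (95% interval -1.71 to -0.67, adjusted p = 0.183), and without WT replicate 3 the difference was -0.86 and was called (adjusted p = 0.0365). Vim, the intermediate filament vimentin, differed by -0.58, and by -0.42 without that library. Ndrg2, a cytoplasmic protein abundant in astrocytes, had 1142, 1099 and 1462 in WT and 785, 872 and 822 in SOD1G93A, a difference of -0.57 (unadjusted p = 8.09e-04). Aldoc, the glycolytic aldolase of astrocytes, differed by -0.32, Aqp4, the water channel of astrocyte endfeet, by -0.27 (unadjusted p = 0.0861, and -0.12 without WT replicate 3), and Slc1a2, the glutamate transporter GLT-1, by 0.29 (unadjusted p = 0.0396).

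Genes linked to reactive states went both ways. Of 11 pan-reactive genes 1 was higher and 3 lower, of 10 A1 genes 2 higher and 0 lower, and of 9 A2 genes 2 higher and 3 lower. The median of the pan-reactive genes was -0.00 and turned to 0.00 to 0.02 under TMM, DESeq2 or edgeR scaling. With single libraries left out, the pan-reactive list had 0 to 5 higher and a median of -0.11 to 0.30, the A1 list 1 to 4 higher, 0 to 1 lower and a median of 0.04 to 0.42, and the A2 list 0 to 3 higher and a median of -0.18 to 0.22. C3, the complement component used to mark A1 astrocytes, had 19.6, 27.3 and 30.4 in WT and 40.7, 43.1 and 26.7 in SOD1G93A. The genotypes overlapped, and its difference of 0.49 had a 95% interval of -0.12 to 1.10 and became 0.31 without WT replicate 1. Lcn2, a secreted lipocalin, differed by 0.32 (95% interval -0.07 to 0.72, and 0.14 without WT replicate 1) and Serpina3n, a protease inhibitor, by 0.48 (95% interval -0.07 to 1.02, 0.31 without WT replicate 1 and 0.73 without WT replicate 3). H2-T23, a nonclassical MHC class I gene, was the A1 member with the largest difference, with 7.37, 17.8 and 21.6 in WT and 38.6, 34.4 and 32.6 in SOD1G93A. The value in WT replicate 1 stood for 3 reads. The difference in H2-T23 was 1.24, and 0.81 without that library. Of the A2 genes, Cd109, a surface protein that binds TGF-beta, had 410, 420 and 583 in WT and 307, 274 and 194 in SOD1G93A, a difference of -0.87 (unadjusted p = 8.63e-04). Emp1, a membrane protein, differed by -0.58 and S100a10, an annexin A2 partner, by -0.56.

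Of 14 receptor genes for the activating factors, 2 were higher and 1 lower, with a median of 0.03. As single libraries were left out, 0 to 2 were higher and 1 lower. Tnfrsf1a, the main TNF receptor, differed by -0.02 (95% interval -0.28 to 0.23, and -0.09 to 0.07 as libraries were left out) and Il1r1, the IL-1 receptor, by -0.41 (95% interval -1.01 to 0.19, and -0.25 without WT replicate 3 and -0.26 without SOD1G93A replicate 2). Tnfrsf1b, the second TNF receptor, had 66.3, 86.1 and 145 in WT and 178, 169 and 127 in SOD1G93A. SOD1G93A replicate 3 lay below WT replicate 3, and the difference was 0.73 (unadjusted p = 0.0179), and 0.48 without WT replicate 1.

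Of 18 microglia markers tested, 8 were higher and 0 lower, with a median of 0.57, and none was called. All SOD1G93A libraries were above all WT libraries for 4 of the 18, against 7.07% of all genes. With log2 depth as a term 7 were called higher, and with depth class 1. The count hung on single libraries, with 4 higher (median 0.31) without WT replicate 1, 4 (0.59) without WT replicate 2, 16 (0.81) without WT replicate 3, and 3 (0.49), 3 (0.47) and 15 (0.74) without SOD1G93A replicates 1, 2 and 3. Tyrobp, the signalling adaptor of microglial receptors, had 14.7, 41.0 and 54.8 in WT and 68.8, 66.1 and 66.7 in SOD1G93A. WT replicate 1 was far below the other libraries, and the difference of 1.03 (adjusted p = 0.505) became 0.49 without it. Trem2, a microglial lipid receptor, had 36.8, 36.9 and 38.2 in WT and 66.7, 54.6 and 47.4 in SOD1G93A, a difference of 0.57 with no overlap. Cd68, a lysosomal protein of phagocytes, differed by 0.74 and Tmem119, a microglial membrane protein, by 1.10. The activated libraries, which are other libraries, had 0 of 18 markers higher and 0 lower, with a median of -0.16. Of 9 complement genes, 0 were higher and 2 lower although the median was 0.49. The median was 0.19 without WT replicate 1, and 4 were higher without WT replicate 3 (0.64) and 5 without SOD1G93A replicate 3 (0.70). C4b had 76.1, 123 and 220 in WT and 47.6, 64.7 and 59.3 in SOD1G93A, a difference of -1.15 (-0.76 without WT replicate 3), and Clu, a secreted chaperone, differed by -0.68 (-0.39 without it). C1qa, a C1q chain made by microglia, differed by 0.59, and by 0.30 without WT replicate 1.

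Interferon-stimulated genes followed a similar order across libraries. Of 26 tested, 8 were higher and 0 lower, with a median of 0.44, none was called, and 8 had all SOD1G93A above all WT libraries, against the same 7.07% of all genes. With log2 depth as a term 5 were called higher and 1 lower, and with depth class 1 higher and 0 lower. Without WT replicates 1, 2 and 3 there were 4, 6 and 10 higher, with medians of 0.31, 0.46 and 0.49, and without SOD1G93A replicates 1, 2 and 3 there were 2, 4 and 9, with medians of 0.36, 0.46 and 0.51. The mean log2 level of the list, relative to the mean of the 6 libraries, was -0.50, -0.17 and 0.03 in WT and 0.34, 0.25 and 0.06 in SOD1G93A. The microglia markers stood at -0.81, -0.25 and 0.16 in WT and 0.47, 0.48 and -0.06 in SOD1G93A, and their part in the interferon result was not tested. Oasl2, an antiviral oligoadenylate synthetase-like protein, had 24.6, 26.0 and 40.9 in WT and 56.6, 59.3 and 56.3 in SOD1G93A. The genotypes did not overlap, and the difference was 0.93 (95% interval 0.41 to 1.44, adjusted p = 0.316). Ifit3, which acts with its partner Ifit1 on viral RNA, had 34.4, 23.2 and 41.5 in WT and 64.5, 56.6 and 45.9 in SOD1G93A, a difference of 0.76. Ifit1, named after its values were seen, had 22.1, 34.2 and 45.4 in WT and 52.9, 58.0 and 43.0 in SOD1G93A, a difference of 0.63 with overlap, and 0.36 without WT replicate 1. Ddx58, the RNA sensor RIG-I, differed by 0.89, and by 0.43 without WT replicate 1.

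The 200 bases before the annotated start of Ifit3 and Ifit1 are printed because interferon-stimulated response elements, where STAT and IRF factors bind, hold the letters TTTC, any 2 bases and TTTC again, shown in capitals. The sequences are from RefSeq (GRCm38.p6), on the plus strand, at chr19:34583329-34583528 for Ifit3 and chr19:34640689-34640888 for Ifit1.
Ifit3: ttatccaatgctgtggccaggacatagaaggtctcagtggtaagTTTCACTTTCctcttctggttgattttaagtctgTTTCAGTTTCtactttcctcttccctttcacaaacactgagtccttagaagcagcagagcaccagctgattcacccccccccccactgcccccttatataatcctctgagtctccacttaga
Ifit1: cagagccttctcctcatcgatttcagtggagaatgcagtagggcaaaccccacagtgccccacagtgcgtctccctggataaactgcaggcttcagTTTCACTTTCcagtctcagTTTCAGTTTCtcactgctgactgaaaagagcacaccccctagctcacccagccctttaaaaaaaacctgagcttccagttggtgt
Each holds 2 matches, which begin 156 and 122 bases before the start in Ifit3 and 104 and 85 bases before it in Ifit1. Both strands were searched in a window that also took in the first 50 bases of the transcript. The letters were in 2.98% of 32851 promoters, or 3.46% of 27025 genes, and in 9 of the 20 interferon list genes that matched an entry, of 26 tested. A match is a description of the letters and shows no binding.

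The MHC class I list had 4 of 16 members higher and 1 lower, with a median of 0.23 (0.14 without WT replicate 3). H2-K1, a classical MHC class I chain, had 236, 226 and 269 in WT and 363, 327 and 289 in SOD1G93A, a difference of 0.42. B2m, the light chain they share, had 759, 976 and 968 against 1232, 1265 and 1065, a difference of 0.40. Neither overlapped between genotypes. The NF-kB list had 3 of 19 members higher and 0 lower, with a median of 0.41 (0.29 by DESeq2 and 0.25 by edgeR). As single libraries were left out, the list had a median of 0.07 to 0.43 and 0 to 7 members higher. Its mean log2 level, relative to the mean of the 6 libraries, was -0.65, -0.10 and 0.18 in WT and 0.34, 0.26 and -0.03 in SOD1G93A, the same order within each genotype as the interferon list and close to that of the microglia markers, whose part in this result was not tested. Il6, the cytokine, had 14.7, 20.5 and 22.1 in WT and 31.2, 35.1 and 28.2 in SOD1G93A, a difference of 0.70.

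Of 14 oligodendrocyte lineage genes tested, Gpr17 included, 0 were higher and 7 lower, with a median of -0.21. Besides Gpr17 these were 0 higher and 6 lower of 13. Sox10, the transcription factor that defines the lineage, had 147, 144 and 231 in WT and 92.1, 89.0 and 85.9 in SOD1G93A. All WT libraries were above all SOD1G93A libraries, and the difference was -0.92 (95% interval -1.34 to -0.51, adjusted p = 0.183). C1ql1, a secreted C1q-related protein, had 24.6, 23.2 and 27.7 against 14.3, 12.1 and 11.9, a difference of -0.93. Pdgfra, the growth factor receptor of precursors, differed by -0.44, and by -0.28 without WT replicate 3. Cnp, Bcas1 and Lhfpl3, named after their values were seen, completed the list of lower genes with -0.29, -0.31 and -0.42. Olig1 and Olig2, transcription factors of the lineage that were also named after their values were seen, went the other way by 0.21 and 0.14, so the summed level of the list was 15842 to 16237 in WT and 16734 to 18495 in SOD1G93A. Of 10 neuron markers, 2 were lower, namely Tubb3, a neuronal tubulin, with 51.6, 54.7 and 51.4 in WT and 24.9, 20.9 and 25.2 in SOD1G93A, and Snap25, a synaptic vesicle fusion protein, with a difference of -0.86. As single libraries were left out, 1 to 4 neuron markers were lower.

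Contractile and matrix genes were lower in SOD1G93A in several members. Of 23 contractile genes and targets of the serum response factor, 1 was higher and 6 lower, with a median of -0.17 (-0.26 to -0.08 and 4 to 6 lower as single libraries were left out). Tagln, described above, was the called member. Tagln2, its paralog, had 779, 838 and 1234 in WT and 606, 504 and 437 in SOD1G93A, a difference of -0.86 (unadjusted p = 6.51e-04). Itga7, a laminin-binding integrin, had 172, 209 and 407 against 101, 109 and 120, a difference of -1.15, and -0.78 without WT replicate 3. Acta2, smooth muscle actin, differed by -0.55, and by -0.36 without SOD1G93A replicate 3. Myl9, a myosin light chain named after its values were seen, had 103, 128 and 109 in WT and 85.2, 84.3 and 87.4 in SOD1G93A, a difference of -0.40 with no overlap.

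The 200 bases before the start of Myl9 are printed because the serum response factor binds a CArG box, shown in capitals. The sequence is from RefSeq (GRCm38.p6), plus strand, chr2:156775264-156775463.
Myl9: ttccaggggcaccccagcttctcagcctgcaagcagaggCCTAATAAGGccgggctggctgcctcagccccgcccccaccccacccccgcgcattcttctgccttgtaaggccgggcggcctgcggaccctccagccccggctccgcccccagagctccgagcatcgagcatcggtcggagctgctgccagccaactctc
The match begins 161 bases before the start. A CArG box on either strand was in 1.47% of 32851 promoters, or 1.62% of 27025 genes, and in 6 of the 19 list genes that matched an entry, of 23 tested.

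Of 27 matrix and basement membrane genes, 1 was higher and 6 lower. The median was -0.14, and -0.21 without WT replicate 1, 0.03 without WT replicate 3 and -0.01 without SOD1G93A replicate 3. Tnr, the brain matrix glycoprotein tenascin-R, had 199, 154 and 215 in WT and 121, 81.6 and 105 in SOD1G93A, a difference of -0.89 (unadjusted p = 5.87e-04). Nid1, a basement membrane linker, had 118, 116 and 167 against 87.8, 74.8 and 63.7, a difference of -0.81. Nid2, its paralog, differed by -0.35 and Vcan, the proteoglycan versican, by -0.32. All 4 kept the genotypes apart.

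Immediate early genes, which respond within minutes to growth factors and calcium, leaned higher. Of 23 tested, 6 were higher and 0 lower, with a median of 0.23 (0.13 without WT replicate 3). Egr1, a zinc finger transcription factor, had 5369, 5373 and 3974 in WT and 7218, 6153 and 6656 in SOD1G93A, a difference of 0.46. Nr4a1, an orphan nuclear receptor, had 182, 209 and 145 against 297, 218 and 259, a difference of 0.53. Junb, an AP-1 subunit, differed by 0.49. The list of growth factor and ERK feedback genes had 4 of 14 higher and 1 lower, with a median of 0.04. The 4 were Dusp6, an ERK phosphatase, with 1668, 1776 and 1617 in WT and 2184, 2085 and 2162 in SOD1G93A, and Spry1, Spry2 and Spry4, inhibitors of receptor tyrosine kinase signalling, with differences of 0.49, 0.33 and 0.34. Dusp6 had a difference of 0.35 with narrow spread in both genotypes. Hbegf, the mouse gene for the factor in the medium, had 339, 375 and 711 in WT and 299, 330 and 311 in SOD1G93A, a difference of -0.52, and -0.19 without WT replicate 3.

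WNT signalling had 6 of 18 members higher and 1 lower, with a median of 0.02 that was -0.00 under quantile and -0.01 under edgeR scaling. Rnf43, a ubiquitin ligase that removes WNT receptors, had 41.8, 41.0 and 25.4 in WT and 79.9, 69.4 and 78.5 in SOD1G93A, a difference of 1.08 (unadjusted p = 6.39e-04). Fzd9, a WNT receptor, had 391, 390 and 269 against 553, 520 and 579, a difference of 0.67. The ligands diverged, Wnt5a at 0.43 and Wnt7b at -0.46. Gliogenic transcription factors and Notch genes had 1 of 22 higher and 5 lower (1 to 6 lower as single libraries were left out). Jag1, a Notch ligand, had 120, 103 and 147 in WT and 198, 204 and 159 in SOD1G93A, a difference of 0.60. Sox2, Sox21 and Id4, regulators of neural progenitors, differed by -0.33, -0.32 and -0.45.

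Trophic factors had 2 of 12 members higher and 2 lower (2 to 4 and 0 to 2 as single libraries were left out). Fgf1, a fibroblast growth factor, had 233, 223 and 233 in WT and 345, 314 and 289 in SOD1G93A, a difference of 0.45 (unadjusted p = 0.00179). Mdk, the heparin-binding factor midkine, differed by 0.54 and Hgf, hepatocyte growth factor, by -0.75. The IL-6 family and STAT3 list had 3 of 15 higher and 1 lower (2 to 5 and 0 to 3 as single libraries were left out). Lifr, a receptor chain for LIF and CNTF, had 484, 439 and 362 against 581, 536 and 624, a difference of 0.45, while Stat3, the transcription factor downstream, differed by -0.30, and by -0.18 without WT replicate 3. Cell cycle genes had 0 of 28 higher and 3 lower, with a median of -0.10, and 1 to 8 lower as single libraries were left out. They were Mcm5 and Mcm7, of the replicative helicase, at -0.32 and -0.43, and Bub1b, a mitotic checkpoint kinase, at -0.41.

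Glutamate, GABA and amino acid genes had 4 of 21 higher and 1 lower, with a median of 0.14 (1 to 3 higher and 0.03 to 0.16 as single libraries were left out). Grm5 and Grm3, metabotropic glutamate receptors, differed by 0.37 and 0.31, and Phgdh, which starts serine synthesis, by -0.34. Kcnk2, a leak potassium channel, had 258, 256 and 291 in WT and 206, 175 and 179 in SOD1G93A, a difference of -0.52. Fatty acid and lipid efflux genes had 3 of 20 higher and 2 lower (1 to 5 and 0 to 2 as single libraries were left out). Elovl6, a fatty acid elongase, had 1078, 1057 and 950 in WT and 1442, 1299 and 1211 in SOD1G93A, a difference of 0.36. Scd1, a desaturase, differed by 0.39 and Srebf1, the transcription factor of fatty acid synthesis, by 0.30. Sterol synthesis had 1 of 23 higher and 1 lower, and the higher gene was Insig1, which holds sterol-sensing complexes in the endoplasmic reticulum, with a difference of 0.51.

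The gene whose human form is the transgene, Sod1, did not differ detectably. It had 1385, 1307 and 1187 in WT and 1259, 1319 and 1384 in SOD1G93A, a difference of 0.03 (95% interval -0.18 to 0.25, and -0.03 to 0.08 as single libraries were left out). The table has no row for the human transgene, so this mouse row is no check of the labels. Of 16 superoxide dismutase and peroxide-removing genes, 0 were higher and 0 lower at an unadjusted p under 0.05 by limma, with a median of 0.03, and every difference lay between -0.20 and 0.23. Its median ranged from -0.10 to 0.12 as single libraries were left out. Of 20 NRF2 targets and glutathione genes, 1 was higher and 2 lower, with a median of -0.22 (1 to 6 lower and -0.31 to -0.09 as single libraries were left out). With depth class as a term 1 was called higher and 7 lower, and with log2 depth 2 higher and 12 lower. The higher one was Txn1, the redox protein thioredoxin, with 1238, 928 and 597 in WT and 1343, 1690 and 1911 in SOD1G93A, a difference of 0.89. Gstp1, a glutathione transferase, had 739, 644 and 706 against 532, 555 and 560, a difference of -0.34, and Gclm, which limits glutathione synthesis, differed by -0.32.

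Among protein quality control genes, the unfolded protein response list had 1 of 21 higher and 4 lower, with a median of -0.16. All SOD1G93A libraries were below all WT libraries for 5 of the 21, against 7.57% of all genes. With log2 depth as a term 1 was called higher and 7 lower, and with depth class 0 higher and 3 lower. Heat shock chaperones had 0 of 16 higher and 1 lower, with a median of -0.21 (-0.33 to -0.12 as single libraries were left out). For these chaperones log2 depth as a term gave 1 called higher and 8 lower, and depth class 1 higher and 4 lower. Proteasome subunits had 0 of 31 higher and 1 lower, with a median of -0.05. Left-out libraries gave 1 to 6 lower in the unfolded protein response, 0 to 5 in heat shock and 0 to 3 in the proteasome. Edem1, which sends misfolded glycoproteins for degradation, was the higher one by 0.37, while Calr, Pdia6 and Dnajc3, folding factors of the endoplasmic reticulum, differed by -0.32, -0.29 and -0.25. Hsph1, a large heat shock protein, differed by -0.43, and by -0.27 without WT replicate 3. Of 29 other ALS-linked genes, 0 had an unadjusted p under 0.05 in either direction, the median was -0.12 and the range -0.40 to 0.25, while 6 were lower without WT replicate 1 (median -0.19), 4 without SOD1G93A replicate 1 (-0.13) and 0 without WT replicate 3 (-0.07). With log2 depth as a term 0 were called higher and 7 lower, and with depth class 0 higher and 2 lower. Vcp, a segregase of ubiquitinated proteins, differed by -0.33 (95% interval -0.72 to 0.07).

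**Figure D3:**
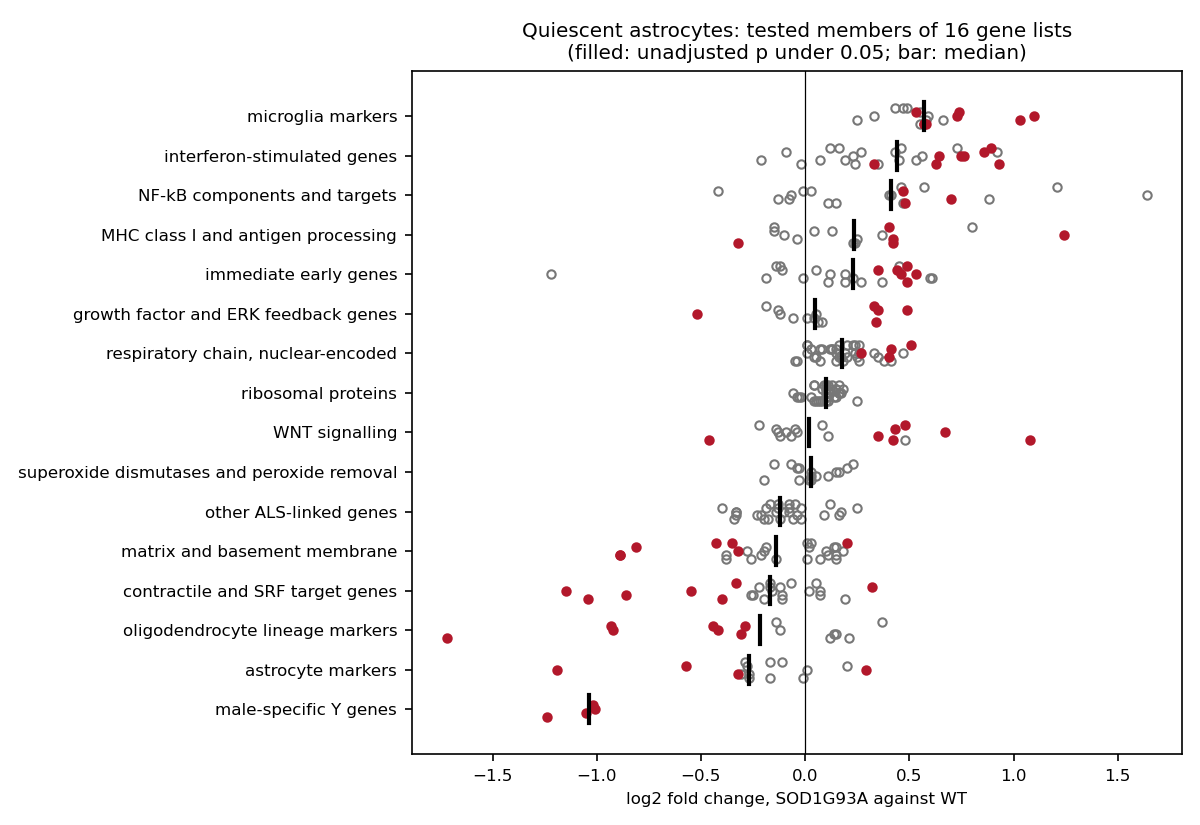
Log2 fold change of SOD1G93A against WT for each tested member of gene lists, 1 row per list. Filled points have an unadjusted p under 0.05 and black bars are list medians, such as 0.57 for microglia markers and 0.03 for superoxide dismutases and peroxide removal.

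Lists also moved with the library within a genotype. Ribosomal protein genes stood at 0.23, 0.01 and -0.38 in WT replicates 1, 2 and 3 and at -0.16, 0.06 and 0.24 in SOD1G93A replicates 1, 2 and 3, relative to their mean, so the deepest libraries had the lowest values in both genotypes. None of their 37 members had an unadjusted p under 0.05, and 0 were called by limma. With depth class as a term in the fit 4 of 37 were called higher. With log2 depth as a term 29 of 37 were called higher, beside 2359 genes (19.2%) called in all, 1120 higher (9.13%) and 1239 lower (10.1%). The nuclear-encoded respiratory chain had 4 of 40 higher and a median of 0.17. With log2 depth as a term 26 of its members were called higher, and with depth class 10. In the log2 depth fit 1 contractile gene of 23 was called higher and 11 lower, and 1 matrix gene of 27 higher and 10 lower. That fit also called 2 cell cycle genes of 28 higher and 11 lower, and 8 immediate early genes of 23 higher and 2 lower. With depth class these counts were 1 higher and 4 lower for contractile genes and 0 and 5 for matrix genes. They were 0 and 8 for cell cycle genes and 5 and 0 for immediate early genes. For the respiratory chain, without WT replicate 1 there were 20 higher (median 0.32), without SOD1G93A replicate 1 there were 11 (0.28), and without WT replicate 3 there were 0 (0.05). The ribosomal median of 0.10 ranged from -0.06 without WT replicate 3 to 0.26 without WT replicate 1. Among single genes with a mean of at least 50, Gm6644, a predicted gene, had the widest spread within genotypes, with 0, 156 and 201 in WT and 83.6, 152 and 204 in SOD1G93A. Neat1, a nuclear long noncoding RNA, had 648, 443 and 241 in WT and 280, 591 and 846 in SOD1G93A, and Miat, another, had 302, 267 and 111 against 62.4, 157 and 218. Xist was among these 12 genes.

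**Figure D4:**
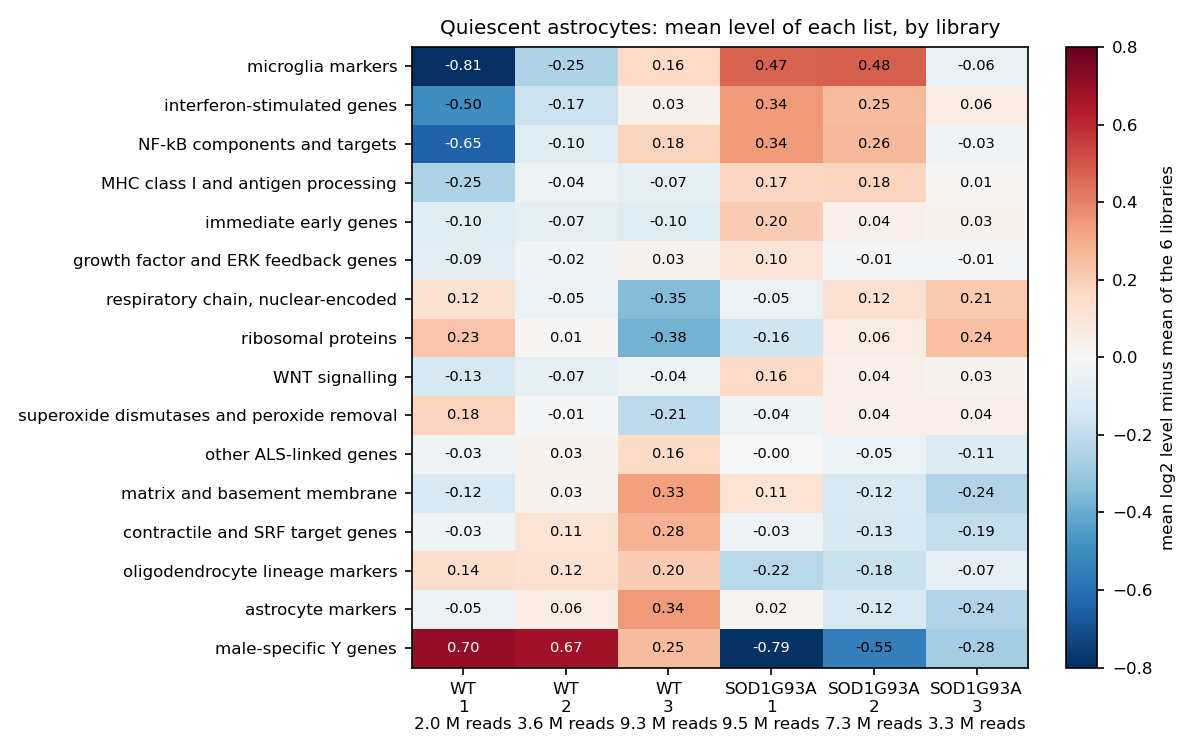
Mean log2 level of each gene list in each of the 6 libraries, relative to the mean of the 6, with the reads of each library under its name. Microglia markers are lowest in WT replicate 1 at -0.81, and ribosomal protein genes are lowest in WT replicate 3 at -0.38.

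Activated astrocytes of the same genotypes, in libraries not shared with the quiescent ones, gave a second set of values. The labels do not say whether these cells came from other animals or cultures than the quiescent ones. In activated SOD1G93A cells the 4 tested Y genes were lower at an unadjusted p under 0.05 by limma, and Xist was higher by 1.19. The part of a shared source or sex mix in the values common to both states was not tested. There, 879 of 12098 genes (7.27%) were called by limma, 582 by DESeq2, 365 without activated WT replicate 1 and 448 without activated WT replicate 2, and at an unadjusted p under 0.05 10.9% were higher and 9.51% lower. Of 1027 genes with an unadjusted p under 0.05 in quiescent cells and tested in both, 322 were so in the same direction in activated cells (2.73% of the 11807 tested in both), 151 higher and 171 lower, and 39 in the opposite direction (0.330%). Thy1 had 0.79 in quiescent and 0.93 in activated cells, Kdm5d -1.24 and -1.45, and Sox10 -0.92 and -0.90. Dio2, which makes active thyroid hormone, had 268, 294 and 226 in quiescent WT and 467, 429 and 415 in quiescent SOD1G93A, a difference of 0.74, and 1.42 in activated cells. Thrsp, a thyroid hormone-responsive regulator of lipid synthesis, had 0.85 (0.54 without quiescent WT replicate 3) and 1.39, Igfbp4, an IGF-binding protein, 0.76 and 0.52, and Tlr3, a receptor for double-stranded RNA, 0.66 and 0.84. Dio2, Thrsp, Igfbp4 and Tlr3 were named after their values were seen. Gpr17 had -1.72 and -0.80, Tagln -1.04 and -0.37, and Thrb 0.98 and 0.21. In activated cells neither Gpr17 (unadjusted p = 0.0593) nor Thrb (unadjusted p = 0.309) passed, and the genotypes overlapped for Thrb.

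The genotype difference itself differed between the states for 34 of 12269 genes (0.277%) by the limma interaction term. That count was 13 to 68 as single libraries were left out, 68 being without quiescent WT replicate 1, and 0 with a replicate block. Interferon-stimulated genes had 8 of 26 higher in quiescent cells and 26 of 26 in activated cells, with medians of 0.44 and 1.54. Gabbr1 differed by -0.98 in quiescent and -0.28 in activated cells, a difference between states of 0.69 (adjusted p = 0.0492).

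**Figure D5:**
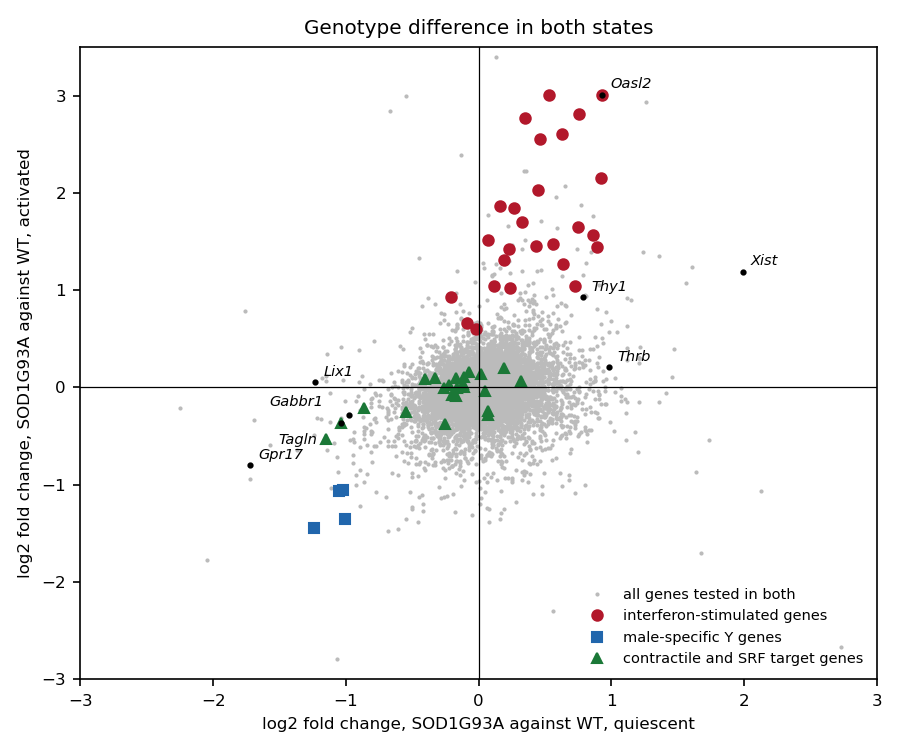
Log2 fold change of SOD1G93A against WT in activated astrocytes (vertical axis) against quiescent astrocytes (horizontal axis), 1 point per gene tested in both. Circles are interferon-stimulated genes, which lie above 0 in activated cells, squares are Y genes, triangles are contractile genes, and labelled black points are named genes such as Oasl2 (0.93 and 3.01) and Thy1 (0.79 and 0.93).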

How the data were processed

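RNA was sequenced from 6 quiescent astrocyte libraries, 3 per genotype, and 6 activated ones. Per the submitters' processing notes, the authors used STAR, RSEM and DESeq2 on mm10. The deposited signal was normalized counts, read counts divided by a size factor per library. The authors' fold change and p-value columns were not used. Whole reads were recovered from 100% of values within 0.01 read. The fit took genes averaging at least 10 and used limma 3.58.1 (R 4.3.3, trend) on log2(normalized count + 1), which understates changes of low genes. Adjusted p-values are Benjamini-Hochberg over all genes tested, called means under 0.05, and unadjusted p-values are from the same two-sided limma test. DESeq2 1.42.0 and edgeR 4.0.16 on the recovered reads, other scalings, filters, pseudocounts of 0.5 and 5, depth terms, library weights, a replicate block and left-out libraries were alternatives. The scripts were tested on simulated data. Size factors scale each library as a whole, and precision is lowest in the shallow libraries.

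Named genes were the called genes, the 10 largest differences each way among genes with a mean of at least 50 and an unadjusted p under 0.05 whose genotypes did not overlap, preset genes, up to 4 members per list by p, the 12 genes of widest spread and Y genes with Xist. The genes and lists were chosen with earlier results of these data known. Symbols were matched to GENCODE M21 (GRCm38) directly for 23376 genes and by an older symbol for 669, and 366 were not matched. Promoters came from RefSeq.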

Additional observations from a re-analysis of the deposited data

Results flagged for a closer look

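For 34 of 12269 genes the genotype difference was not the same in activated and quiescent astrocytes by the limma interaction term, and 33 of them were larger in activated cells, in signed log2 terms, and 1 smaller. The count of 34 was 13 to 68 as single libraries were left out and 0 with a replicate block. Of the 34, 14 belong to the interferon or MHC lists. The difference between states, activated minus quiescent, was 2.09 for Oasl2, 2.05 for Ifit3 and 1.98 for Ifit1. Oasl2 had 63.1, 56.6 and 73.2 normalized counts in activated WT and 701, 426 and 478 in activated SOD1G93A libraries, and Ifit3 had 42.4, 59.1 and 61.4 against 460, 323 and 375. Further genes had values below 0 in quiescent cells. Lix1, a gene named after its values were seen, differed by -1.23 in quiescent and 0.05 in activated cells, a difference between states of 1.27. Mapk10, the JNK3 kinase gene, also named after its values were seen, gave -0.75 and 0.08, a difference of 0.82. Gabbr1 gave -0.98 and -0.28, a difference of 0.69. Phgdh gave -0.34 and 0.42, a difference of 0.76, and Aldoc gave -0.32 and 0.37, a difference of 0.68.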

How the results depend on the processing

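The count of 7 called genes kept within 1.5 times under pseudocounts of 0.5 and 5, a minimum in every library, TMM, quantile and edgeR. It was 3 with no filter on the mean, 0 without the trend, 2 without X and Y genes, 54 with DESeq2, 746 with depth class and 2359 with log2 depth as a term and 5321 with library weights, whose estimate stopped before converging (weights of 0.26 to 9.56). All 7 were also called by DESeq2, edgeR and both depth terms. Left-out libraries gave 1 to 6, with 2 without WT replicate 1, 1 without WT replicate 2, 6 without WT replicate 3, 1 without SOD1G93A replicate 1 or 2 and 2 without SOD1G93A replicate 3. The strict count of 0 became 178 with weights, 13 with depth class, 41 with log2 depth and 7 with DESeq2. The 1068 genes at an unadjusted p under 0.05 became 6309, 2937 and 3898 with weights, depth class and log2 depth, and 507 to 1534 with a library left out. The cause of these shifts was not tested. Deviations of libraries with the same replicate number had correlations of -0.40, 0.06 and -0.44. Those of WT replicate 1 with SOD1G93A replicate 3 and of WT replicate 3 with SOD1G93A replicate 1 were 0.35 and 0.52, and the other pairs had -0.13 to 0.08. Depth ran in opposite order by replicate number in the genotypes, so these values cannot show whether libraries shared a preparation. With a replicate block the counts were 0 called, 520 at an unadjusted p under 0.05 and 0 for the difference between states. That difference, 34 genes, ranged from 13 to 68 with a library left out. The activated count of 879 was 582 with DESeq2, an alternative chosen after seeing the data, and 365 to 1179 with a library left out. Over 138 named genes and their alternatives, 2349 of 2747 values kept direction and side of the threshold, 321 became called, 53 were no longer called and the other 24 changed sign with an unadjusted p of at least 0.05 in both. Depth of the shallowest library, 2016139 reads, limits low genes.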
